A study of Mus musculus and Homo sapiens with 19 samples.

Results

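A set of 10 epithelial junction and splicing genes was followed through the 19 libraries of the series: Cdh1, Epcam, Cldn3, Cldn4, Cldn7, Ocln, Dsc2, Dsp, Ppl and Esrp1. The genes were chosen by name, as rows with these symbols, and all 10 were found among the 24421 rows of the knockdown table, the 57992 of the human table and the 55573 of the co-culture tables. The series addressed how differences in PHGDH, the enzyme that starts serine synthesis, bear on the spread of breast cancer cells, and measured mRNA by sequencing in cultured cells.

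In the knockdown, 3 shPHGDH libraries of 4T1, a mouse mammary tumour line, carried a pLKO.1 vector with an shRNA against PHGDH, and 3 shSCR libraries carried the same vector with a scramble shRNA. The human breast cancer line MDA-MB-231, which has mesenchymal features, gave a second experiment, in which 3 libraries were labelled as overexpressing PHGDH from a pLHCX vector with its cDNA, and 3 were controls, whose vector the labels do not give. For co-culture there was 1 library each of 4T1 sorted after culture with Bend3, EMT6.5 sorted after culture with Bend3, and Bend3 sorted after culture with 4T1 or with EMT6.5, and 1 each of 4T1, EMT6.5 and Bend3 grown alone. EMT6.5 is a second mouse mammary tumour line and Bend3 a mouse endothelial line; the co-cultured cells were separated by FACS before RNA extraction. The labels do not say how many shRNA sequences or clones were used, or whether replicates were separate cultures, so the p-values below measure only how far these libraries spread, which may be technical.

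Epithelial cells hold together through 3 kinds of contact. Adherens junctions rest on E-cadherin, tight junctions on claudins and occludin that seal the gap between cells, and desmosomes on cadherins tied by desmoplakin to keratin filaments. ESRP1 is a splicing regulator that keeps many transcripts in their epithelial forms, and loss of these genes is part of the textbook picture of epithelial-mesenchymal transition, in which ZEB, SNAI and TWIST factors act as repressors.

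Promoter sequences are shown for Epcam and the 3 claudins, since these genes fell together in the knockdown. RefSeq entries matched 6 of the 10 genes (Epcam, Cldn3, Cldn4, Cldn7, Dsp and Ocln). Each line gives the 250 bases before the annotated start, 5′ to 3′ on the strand of the gene, from RefSeq on GRCm38.p6. Capitals mark CACCTG or its reverse complement CAGGTG, the E-box that ZEB and SNAI repressors are known to bind.

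Epcam (GRCm38.p6, chr17:87635729-87635978, plus strand): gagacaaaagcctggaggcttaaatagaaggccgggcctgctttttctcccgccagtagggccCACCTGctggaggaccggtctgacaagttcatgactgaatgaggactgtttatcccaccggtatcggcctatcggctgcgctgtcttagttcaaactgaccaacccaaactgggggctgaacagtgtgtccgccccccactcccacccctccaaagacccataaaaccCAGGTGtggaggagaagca
Cldn3 (GRCm38.p6, chr5:134985964-134986213, plus strand): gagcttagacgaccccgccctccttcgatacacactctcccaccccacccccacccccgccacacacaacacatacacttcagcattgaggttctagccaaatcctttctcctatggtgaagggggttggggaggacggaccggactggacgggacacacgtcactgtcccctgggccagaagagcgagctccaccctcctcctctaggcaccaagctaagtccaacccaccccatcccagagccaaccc
Cldn4 (GRCm38.p6, chr5:134946935-134947184, minus strand): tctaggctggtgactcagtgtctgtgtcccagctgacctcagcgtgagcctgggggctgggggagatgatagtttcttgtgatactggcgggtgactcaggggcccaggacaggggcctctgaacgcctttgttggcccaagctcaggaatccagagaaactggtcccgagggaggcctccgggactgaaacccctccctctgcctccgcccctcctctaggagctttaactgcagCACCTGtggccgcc
Cldn7 (GRCm38.p6, chr11:69964529-69964778, plus strand): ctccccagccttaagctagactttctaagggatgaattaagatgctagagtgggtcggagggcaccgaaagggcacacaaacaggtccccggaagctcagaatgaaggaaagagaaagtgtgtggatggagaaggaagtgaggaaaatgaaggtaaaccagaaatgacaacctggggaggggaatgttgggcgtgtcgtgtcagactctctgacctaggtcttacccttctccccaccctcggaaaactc

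Epcam held the motif at 2 places, starting 187 and 19 bases before the start, Cldn4 held it once, starting 14 bases before the start, and Cldn3 and the window shown for Cldn7 held none. Both strands were searched, and 17.2% of 32851 RefSeq windows of this length held the motif. The GRHL motif AACCGGTT was in none of the 8 windows of these genes and in 0.116% of all windows. A second Cldn7 window, from a downstream start, and 1 of the 2 Ocln windows each held CACCTG at 2 places, and the Dsp window held none. These are letter matches in short windows and say nothing of whether a factor binds there.

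Cldn3 (GRCm38 chromosome 5, 134986214 to 134987472, plus strand) and Cldn4 (chromosome 5, 134945119 to 134946934, minus strand) are neighbours with 39279 bases between them. Cldn3, Dsp and Esrp1 overlap exons of a gene on the other strand (Wbscr25, Gm10129 and Gm26663). The library kit marked strand, and the counting setting is not given in the sources used here. Wbscr25 had 0 to 7 counts in the knockdown libraries, and all 3 overlapping genes had 0 counts in the co-culture libraries.

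Libraries held 12.7 to 20.5 M assigned counts in the knockdown, 19.5 to 23.8 M in MDA-MB-231 and 4.27 to 7.67 M in co-culture. Levels are given as CPM, counts per 1 M assigned gene counts. Fold changes in the replicated experiments come from edgeR's quasi-likelihood test with TMM scaling, and "rose" and "fell" there mean a Benjamini-Hochberg adjusted p under 0.05 over all genes tested. Among the knockdown libraries, shPHGDH replicate 1 stood apart from replicates 2 and 3 (chi-square over degrees of freedom 14.9 and 20.8, against 1.76 between those). The target was lowered as labelled: Phgdh was at 20.21, 20.01 and 21.5 CPM in shPHGDH and 170, 175 and 165 CPM in shSCR (log2 fold change -3.0, SE 0.043, adjusted p = 5.16e-28). In a bulk library, fewer cells of a kind and less RNA per cell cannot be told apart.

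In the knockdown, 8 of the 10 genes fell, 1 rose and 1 was not called. Over all 11568 genes tested, 59.7% were called, 29.6% lower and 30.1% higher. The median log2 fold change was -0.66 over the 10 genes and -0.01 over all genes tested. The largest falls were in the desmosomal cadherin Dsc2, the claudin Cldn7 and the splicing factor Esrp1, which were 4.26-fold, 2.73-fold and 2.73-fold lower. They ranked 28, 75 and 76 from the most lowered of all genes tested, and were the only 3 of the 10 at least 2-fold lower, with none at least 2-fold higher. Over all genes tested, 1.90% were called and at least 2-fold lower and 2.88% at least 2-fold higher.

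**Figure D1:**
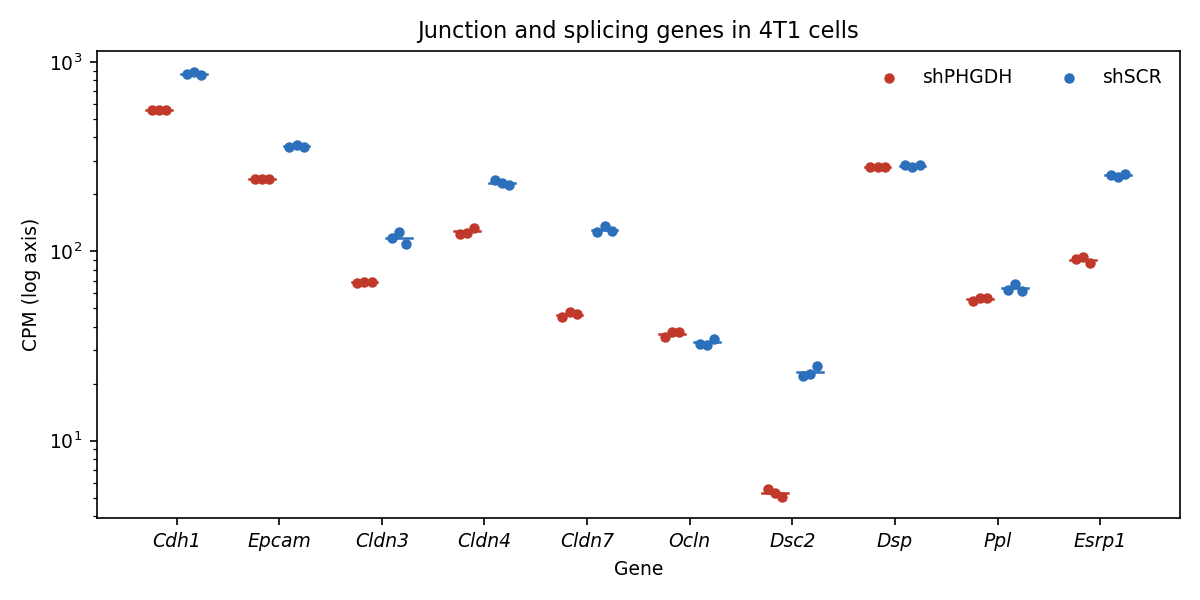
CPM (log axis) of the 10 genes in 4T1 cells, with shPHGDH libraries left of shSCR libraries; points are single libraries and short lines group means (n = 3 each). The 3 shPHGDH points lie below the 3 shSCR points for 8 genes and above them for Ocln, and the groups overlap only for Dsp.

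Cdh1 encodes E-cadherin, the calcium-dependent adhesion molecule of adherens junctions. It lies on chromosome 8 (106603351 to 106670246, plus strand) and was at 560, 561 and 558 CPM in shPHGDH and 868, 886 and 854 CPM in shSCR. Every shPHGDH library was below every shSCR library, and Cdh1 fell by 0.60 on the log2 scale (SE 0.023, adjusted p = 2.14e-18). The median over the other chromosome 8 genes was -0.25, so Cdh1 lay -0.34 from its chromosome. Epcam encodes an epithelial cell adhesion molecule that also binds claudin-7, and lies on chromosome 17 (87635979 to 87651129, plus strand). Its levels were 240, 242 and 240 CPM in shPHGDH and 355, 364 and 357 CPM in shSCR. The groups did not overlap, and Epcam fell by 0.53 (SE 0.027, adjusted p = 7.12e-16), with a chromosome 17 median of -0.053.

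The 3 claudins, which form the strands of tight junctions, all fell. Cldn3 was at 68.1, 69.3 and 69.3 CPM in shPHGDH and 118, 126 and 109 CPM in shSCR, a log2 fold change of -0.73 (SE 0.042, adjusted p = 1.4e-14). Its neighbour Cldn4 was at 124, 126 and 133 CPM in shPHGDH and 237, 230 and 225 CPM in shSCR, a log2 fold change of -0.81 (SE 0.034, adjusted p = 1.36e-17). For both genes the shPHGDH libraries lay below all shSCR libraries. The median of the 50 nearest tested genes on chromosome 5 was 0.05, beside the falls of this pair. Cldn7 (chromosome 11, 69964779 to 69967885, plus strand) was at 44.8, 47.7 and 46.6 CPM in shPHGDH and 126, 135 and 128 CPM in shSCR. It fell furthest of the 3, with a log2 fold change of -1.45 (SE 0.039, adjusted p = 5.4e-22), against a chromosome 11 median of -0.04.

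Ocln encodes occludin, a membrane protein that sits with claudins in tight junctions. It lies on chromosome 13 (100496507 to 100552718, minus strand) and was at 35.2, 37.3 and 37.4 CPM in shPHGDH and 32.6, 32.0 and 34.6 CPM in shSCR. The groups did not overlap and Ocln rose by 0.19 (SE 0.057, adjusted p = 0.00654), a direction opposite to the claudins. The median of the other chromosome 13 genes was 0.25, so Ocln lay -0.06 from it. The call was lost with sequencing lane in the model, where the value was 0.12 (adjusted p = 0.209), and with lane 6 libraries alone (0.12, adjusted p = 0.232).

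The desmosome genes behaved unequally. Dsc2 encodes desmocollin 2, a cadherin of the desmosome, and lies on chromosome 18 (20030633 to 20059554, minus strand). It was at 5.54, 5.28 and 5.07 CPM in shPHGDH and 21.9, 22.6 and 24.8 CPM in shSCR, from 261 counts summed over shPHGDH and 1169 over shSCR. All shPHGDH libraries were far below all shSCR libraries, and Dsc2 fell by 2.09 (SE 0.093, adjusted p = 5.35e-17), with a chromosome 18 median of -0.14. Dsp encodes desmoplakin, which ties the desmosome to keratin filaments, and lies on chromosome 13 (38151294 to 38198577, plus strand). Its levels of 278, 281 and 280 CPM in shPHGDH overlapped the 285, 280 and 286 CPM in shSCR. The log2 fold change was 0.02 with a 95% interval of -0.04 to 0.07 (adjusted p = 0.563), so a change of more than 0.07 in either direction lay outside the interval. The median of the other chromosome 13 genes was 0.25, so Dsp lay -0.23 from it. Ppl encodes periplakin, a plakin that links intermediate filaments to junctions and to the cornified envelope (chromosome 16, 5086291 to 5132421, minus strand). It was at 55.0, 56.9 and 56.5 CPM in shPHGDH and 62.8, 67.1 and 61.4 CPM in shSCR, and fell by 0.14 (SE 0.043, adjusted p = 0.00523). The chromosome 16 median was 0.12, so Ppl lay -0.26 from it. The groups did not overlap, but the call was lost with DESeq2 (adjusted p = 0.058), without shSCR replicate 2 (0.0572), with lane in the model (0.165) and with lane 6 alone (0.221), all but the first by edgeR.

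Esrp1 (chromosome 4, 11331933 to 11386783, minus strand) was at 91.0, 93.1 and 86.6 CPM in shPHGDH and 253, 246 and 257 CPM in shSCR. The groups were well separated, and it fell by 1.45 (SE 0.035, adjusted p = 5.83e-23). The chromosome 4 median was -0.22, which left Esrp1 at -1.23 from its chromosome. Its paralogue Esrp2 fell less, by 0.39 (SE 0.053, adjusted p = 3.75e-07), at 36.1 CPM in shPHGDH and 48.4 CPM in shSCR; Esrp2 is named here beside Esrp1, outside the rule for named genes.

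Groups did not overlap for 9 of the 10 genes, 8 with shPHGDH lower and 1 with shPHGDH higher, beside 64.2% of all genes tested without overlap in either direction. With lane in the model, 7 of the 10 genes were called, all lower, beside 5799 of all 11568 genes tested, 2791 of them lower. Leaving out 1 library at a time left 8 or 9 called, beside 6321 to 6617 of 11672 to 11687 genes tested. The 2 lanes were not balanced, since lane 5 held shSCR 1 and 2 and lane 6 held the remaining 4 libraries.

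Per kilobase of exon, the order of the genes differed between the groups. In shPHGDH the levels ran from Cdh1 (122 CPM per kb) through Epcam (110), Cldn4 (70.3), Cldn3 (54.7), Dsp (29.0), Cldn7 (23.8), Esrp1 (14.3), Ocln (8.68) and Ppl (8.14) to Dsc2 (1.00). In shSCR they ran from Cdh1 (190) through Epcam (163), Cldn4 (127), Cldn3 (93.6), Cldn7 (66.6), Esrp1 (40.0), Dsp (29.4), Ppl (9.25) and Ocln (7.83) to Dsc2 (4.38). The replicate ranges of neighbours in these orders did not overlap in either group. Dsp thus stood above Cldn7 and Esrp1 in shPHGDH and below both in shSCR, without a called change of its own.

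The other genes of these structures, from lists that hold none of the 10, moved in both directions. Of 13 tested tight junction genes, 10 fell and 1 rose, with a median log2 fold change of -0.16. The largest changes were in the scaffold Inadl, also called Patj (-0.59, SE 0.038, 70.9 CPM in shPHGDH and 109 CPM in shSCR), in Marveld3 (-0.47, SE 0.083), a tricellulin and occludin relative, and in the polarity gene Crb3 (-0.46, SE 0.15). The Crb3 call was lost with DESeq2 (adjusted p = 0.0901), without shPHGDH replicate 1 (0.0504) and with lane (0.0882). Of 10 adherens junction genes, 4 rose and 3 fell (median 0.17). The actin linker Vcl rose (0.67, SE 0.03, on chromosome 14, whose median was 0.51). The actin-binding Lima1 also rose (0.38, SE 0.047, on chromosome 15, whose median was 0.28), while plakoglobin, Jup, fell (-0.31, SE 0.036). Of 8 desmosome and plakin genes, 6 fell and none rose (median -0.29), with the largest falls in envoplakin, Evpl (-1.37, SE 0.1, 5.34 CPM in shPHGDH and 14.2 CPM in shSCR), the desmosomal membrane protein Perp (-0.47, SE 0.03) and plakophilin 3, Pkp3 (-0.43, SE 0.038).

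Of 10 tested epithelial transcription and splicing factors, 5 fell and 3 rose (median -0.19). Grainyhead-like 1, Grhl1, fell by 2.11 (SE 0.18, 1.45 CPM in shPHGDH and 6.41 CPM in shSCR), while the Kruppel-like factor Klf5, also on chromosome 14, rose by 0.59 (SE 0.052). Of 6 tested repressors of epithelial junction genes, 4 rose and 2 fell (median 0.43). Twist1 rose by 0.85 (SE 0.072, 23.0 CPM in shPHGDH and 13.1 CPM in shSCR) and Foxc2 by 0.61 (SE 0.09), whereas Zeb1 fell by 1.54 (SE 0.24, 0.946 CPM in shPHGDH and 2.77 CPM in shSCR). Zeb2 and Snai1 were the other genes of this list that rose and Tcf4 the other that fell, at 0.51, 0.37 and -0.29; they lie outside the rule for named genes. Of 10 genes whose transcripts ESRP proteins are known to splice, 5 rose and none fell (median 0.13), among them Enah (0.33, SE 0.043), Slk (0.26, SE 0.031) and Rac1 (0.14, SE 0.023). These are gene totals, and no file here gives exon counts, so splicing itself was not measured. Of 10 other epithelial surface genes, 5 fell and 3 rose (median -0.09), led by Ap1m2, an epithelial clathrin adaptor subunit (-1.06, SE 0.1), the recycling GTPase Rab25 (-0.61, SE 0.07) and the serine protease Prss8 (-0.46, SE 0.098). The adjusted p of each named gene was at most 0.00939 by edgeR.

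Keratins of epithelial cells were present: 5 of 6 epithelial keratins were above 1 CPM in every knockdown library and Krt5 was at 0. Of the 5, Krt18 (0.55) and Krt8 (0.33) rose, while Krt14 (-1.02), Krt19 (-0.97) and Krt7 (-0.15) fell on the log2 scale, with adjusted p-values of at most 6.03e-06 by edgeR. Their summed level, most of it from Krt7, Krt8 and Krt18, was 3050 to 3150 CPM in shPHGDH and 2790 to 2890 CPM in shSCR. Markers of other cells were scarce and also moved with the groups. The sum of 10 endothelial markers was 42.0 to 45.1 CPM in shPHGDH and 24.6 to 28.7 CPM in shSCR, of which Flt1 alone averaged 42.3 CPM in shPHGDH and 25.5 CPM in shSCR, and no other marker reached 1 CPM. The sum of 8 fibroblast markers was 10.2 to 11.5 CPM in shPHGDH and 6.94 to 8.25 CPM in shSCR, with Lum at 0 throughout. The sum of 8 leukocyte markers was 13.2 to 15.4 CPM in shPHGDH and 9.25 to 10.9 CPM in shSCR, with Cd3e at 0 throughout. The part of these markers, and of lane, in the results above was not tested beyond the fits with lane.

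**Figure D2:**
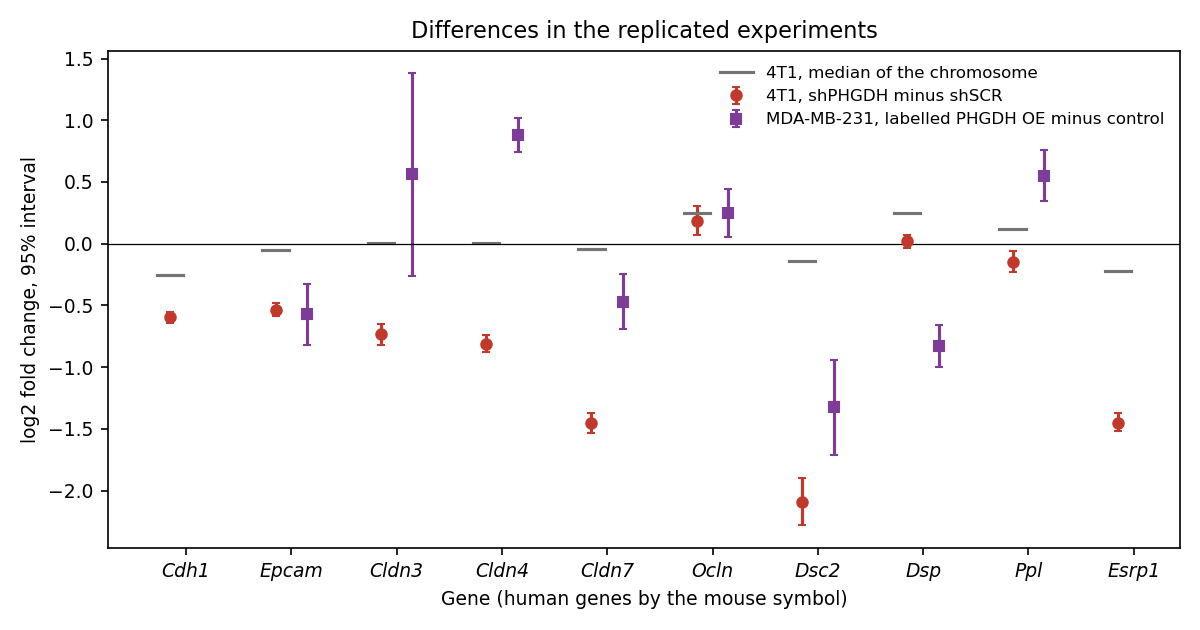
Log2 fold change with its 95% interval from edgeR for each gene, shPHGDH minus shSCR in 4T1 (circles) and labelled PHGDH OE minus control in MDA-MB-231 (squares); grey bars give the median of the gene's chromosome in 4T1. Dsc2 is lowest in both experiments, at -2.09 and -1.32, and CDH1 and ESRP1 have no square because their counts were too low to test.

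In MDA-MB-231 the targeted gene ran against its label. PHGDH was at 5.88, 4.44 and 5.56 CPM in the libraries labelled PHGDH-overexpressing and 15.8, 16.0 and 18.5 CPM in the controls (log2 fold change -1.61, SE 0.12, adjusted p = 5.76e-10). Directions below are therefore those of the libraries labelled PHGDH-overexpressing, whatever their PHGDH level. No human annotation was used, so genes are named by the identifiers of the deposited table.

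E-cadherin and ESRP1 were close to absent in this line. CDH1 (ENSG00000039068) had 3, 3 and 2 counts in the libraries labelled PHGDH-overexpressing and 2, 2 and 1 counts in the controls. ESRP1 (ENSG00000104413) had 2, 6 and 7 counts in the libraries labelled PHGDH-overexpressing and 6, 3 and 5 counts in the controls. Neither passed the filter on low counts, so neither was tested and no fold is given. The other 8 genes were tested, and 4 fell, 3 rose and 1 was not called. Over all 17663 genes tested, 44.5% were called, 22.9% lower and 21.6% higher. The median log2 fold change was -0.11 over the 8 genes and -0.01 over all genes tested. With library totals as the only scaling, 4900 genes were lower and 3053 higher (38.4% of calls higher), against 4048 lower and 3816 higher with TMM (48.5%).

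**Figure D3:**
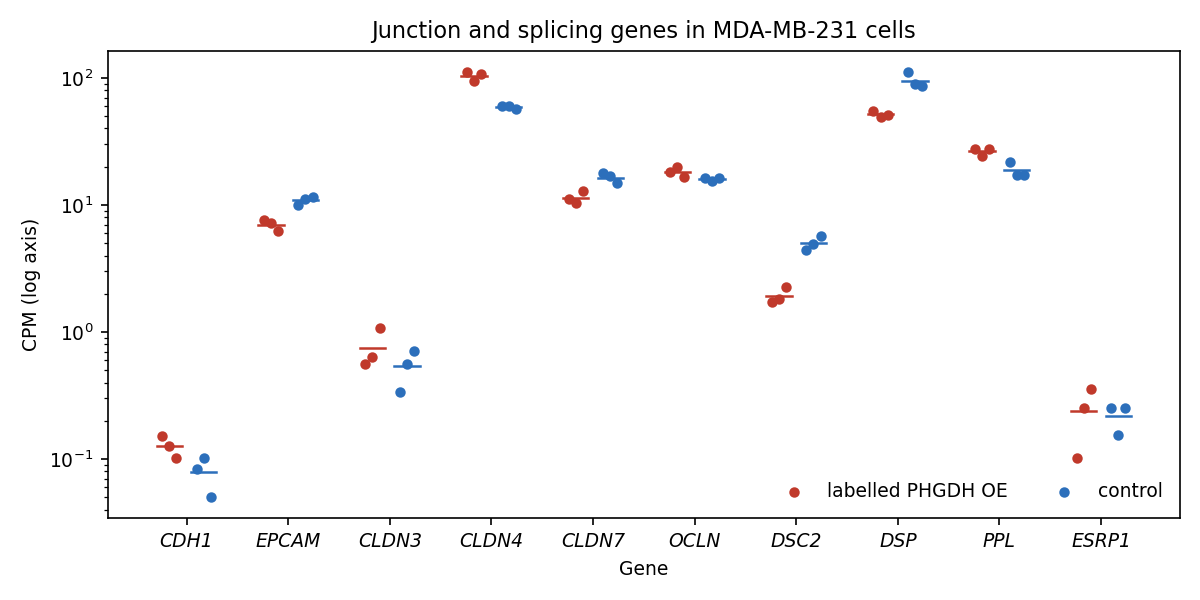
CPM (log axis) of the 10 human genes, with libraries labelled PHGDH OE left of controls; points are single libraries and short lines group means (n = 3 each). CDH1 and ESRP1 lie below 0.4 CPM in all 6 libraries, and CLDN4 is the gene with the highest level in the libraries labelled PHGDH OE.

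EPCAM (ENSG00000119888) was at 7.61, 7.19 and 6.22 CPM in the libraries labelled PHGDH-overexpressing and 9.97, 11.1 and 11.6 CPM in the controls, and fell by 0.57 (SE 0.12, adjusted p = 0.000483). Among the claudins, CLDN4 (ENSG00000189143) was at 111, 95.1 and 107 CPM in the libraries labelled PHGDH-overexpressing and 60.4, 59.7 and 56.6 CPM in the controls. CLDN4 rose by 0.88 (SE 0.069, adjusted p = 7.42e-10), a direction opposite to its fall in the 4T1 knockdown. CLDN7 (ENSG00000181885) was at 11.2, 10.3 and 12.9 CPM in the libraries labelled PHGDH-overexpressing and 17.7, 16.8 and 14.8 CPM in the controls, and fell by 0.47 (SE 0.11, adjusted p = 0.00108). The groups did not overlap for any of these 3 genes. CLDN3 (ENSG00000165215) was at 0.558, 0.635 and 1.07 CPM in the libraries labelled PHGDH-overexpressing and 0.337, 0.564 and 0.71 CPM in the controls. Its groups overlapped, and the log2 fold change of 0.56 had a 95% interval of -0.26 to 1.38 (adjusted p = 0.266), so at this depth neither direction was resolved. OCLN (ENSG00000197822) was at 18.1, 19.9 and 16.5 CPM in the libraries labelled PHGDH-overexpressing and 16.4, 15.3 and 16.2 CPM in the controls. It rose by 0.25 (SE 0.094, adjusted p = 0.0375), but the call was lost in every alternative except the one without replicate 3 of the libraries labelled PHGDH-overexpressing, with adjusted p-values up to 0.14 by edgeR without 1 library.

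The desmosome genes of MDA-MB-231 moved apart. DSC2 (ENSG00000134755) was at 1.72, 1.82 and 2.24 CPM in the libraries labelled PHGDH-overexpressing and 4.46, 4.97 and 5.68 CPM in the controls, from 121 counts summed over the libraries labelled PHGDH-overexpressing and 315 over the controls. DSC2 fell by 1.32 (SE 0.18, adjusted p = 4.6e-06), the largest change of the 8. DSP (ENSG00000096696) was at 54.6, 49.6 and 50.7 CPM in the libraries labelled PHGDH-overexpressing and 111, 88.8 and 86.0 CPM in the controls, and fell by 0.83 (SE 0.083, adjusted p = 3.87e-08). PPL (ENSG00000118898) was at 27.8, 24.21 and 27.7 CPM in the libraries labelled PHGDH-overexpressing and 22.0, 17.2 and 17.2 CPM in the controls, and rose by 0.55 (SE 0.099, adjusted p = 9.4e-05). None of the 3 had overlapping groups. In all, 7 of the 8 tested genes were without overlap, beside 53.0% of all genes tested. Of the 8, DSC2 was called and at least 2-fold lower and none was at least 2-fold higher, beside 2.73% and 3.06% of genes tested.

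The same lists in MDA-MB-231 gave counts in both directions. Of 11 tested tight junction genes 3 rose and 3 fell, of 10 adherens junction genes 2 rose and 2 fell, and of 7 desmosome and plakin genes 1 rose and 1 fell. The largest changes were F11R, the junctional adhesion molecule (0.94, SE 0.084), cingulin, CGN (-0.81, SE 0.16), CLDN23 (0.74, SE 0.13), afadin under its older symbol MLLT4 (-0.95, SE 0.071), VCL (0.48, SE 0.057) and JUP (0.43, SE 0.09). DSG2 fell by 0.19 (SE 0.069, adjusted p = 0.0306), a call lost without control replicate 1 (adjusted p = 0.253), without replicate 1 (0.0645) or 3 (0.0901) of the libraries labelled PHGDH-overexpressing, by edgeR, and with DESeq2 (0.0528). Of 6 tested repressors 5 fell and none rose (median -0.66), including PRRX1 (-1.34, SE 0.28), ZEB2 (-0.84, SE 0.11) and ZEB1 (-0.48, SE 0.074, 62.6 CPM in the libraries labelled PHGDH-overexpressing and 90.8 CPM in the controls). TCF4 fell by 5.94 (SE 0.66), at 0.017 CPM in the libraries labelled PHGDH-overexpressing and 1.39 CPM in the controls, and SNAI2 by 0.42 (SE 0.1). TCF4 and SNAI2 lie outside the rule for named genes. Of 7 epithelial transcription and splicing factors 1 rose, the RNA-binding RBM47 (1.83, SE 0.097), and 3 fell, among them ESRP2 (-0.53, SE 0.18) and EHF (-0.29, SE 0.082). GRHL1, outside the rule for named genes, also fell (-1.17, SE 0.34), at 0.542 CPM in the libraries labelled PHGDH-overexpressing and 1.27 CPM in the controls. The ESRP2 call was lost with DESeq2 (adjusted p = 0.091), without control replicate 1 (0.0963) and without replicate 3 of the libraries labelled PHGDH-overexpressing (0.0612). Of 9 genes spliced by ESRP proteins CD44 fell (-0.50, SE 0.054) and TCF7L2 rose (0.38, SE 0.076). Of 9 other epithelial surface genes 4 rose and 1 fell. MUC1 (2.07, SE 0.2), AP1M2 (0.74, SE 0.071) and CXADR (-0.66, SE 0.14) changed most among those that averaged 1 CPM or more over both groups, and ST14, which averaged 1.35 CPM in the libraries labelled PHGDH-overexpressing and 0.463 CPM in the controls, rose by 1.61 (SE 0.35). The adjusted p of each gene named from these lists was at most 0.0306 by edgeR. Keratins were higher with the label: 4 of 6 epithelial keratins were tested and all 4 rose, and their sum was 1790 to 2000 CPM in the libraries labelled PHGDH-overexpressing and 1240 to 1260 CPM in the controls. The sum of 10 endothelial markers was 121 to 129 CPM in the libraries labelled PHGDH-overexpressing and 158 to 162 CPM in the controls, with CDH5 and ERG at 0 throughout. ESAM made up most of both sums, averaging 109 CPM in the libraries labelled PHGDH-overexpressing and 139 CPM in the controls. Of 4 endothelial markers tested 3 fell, and PECAM1 rose (0.58, SE 0.12, adjusted p = 0.000377 by edgeR). The sum of 8 fibroblast markers was 11.4 to 12.8 CPM in the libraries labelled PHGDH-overexpressing and 8.01 to 10.6 CPM in the controls, and PDGFRB was the 1 of 3 tested that rose (0.84, SE 0.18, adjusted p = 0.000462 by edgeR). The sum of 7 leukocyte markers was 111 to 118 CPM in the libraries labelled PHGDH-overexpressing and 110 to 118 CPM in the controls, of which CSF1R rose (1.12, SE 0.16, adjusted p = 5.76e-06 by edgeR). CD68 made up most of both leukocyte sums, averaging 108 CPM in the libraries labelled PHGDH-overexpressing and 109 CPM in the controls. The part of these shifts in the results above was not tested.

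Among the co-culture libraries, each condition had 1 library, so nothing there was tested. Ratios of CPM are given with exact 95% binomial intervals that cover counting error only. A gene was counted as differing when it had a mean of at least 5 CPM over the 2 libraries and a ratio of at least 2-fold.

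Before co-culture the 2 tumour lines differed widely in these genes. In 4T1 alone 8 of the 10 were at the 5 CPM mean in the pair, and 7 of them were at least 2-fold higher in 4T1 than in EMT6.5 and 1 lower, beside 15.3% higher and 19.0% lower of 10370 genes. Cdh1 was at 648 CPM in 4T1, from 2789 counts, and 0.130 CPM in EMT6.5, from 1 count (ratio 4970, 892 to 196000). Epcam was at 70.4 CPM in 4T1 and 0.261 CPM in EMT6.5, from 303 counts and 2 counts (270, 74.1 to 2240). Cldn3 was at 141 CPM in 4T1 and 1.56 CPM in EMT6.5 (89.9, 51.1 to 175), and Ppl, below the 5 CPM mean, at 8.36 CPM in 4T1 and 0.521 CPM in EMT6.5 (16.0, 5.75 to 62.0). Cdh1, Epcam and Ppl were thus close to the counting floor in EMT6.5, while Cldn3 had 12 counts there. Esrp1 was at 91.8 CPM in 4T1, where EMT6.5 had 0 counts. It was 235-fold higher in 4T1 by the floor of 3 counts per library (lower limit of the counting interval 190). Cldn7, Ocln and Dsc2 also had 0 counts in EMT6.5. By the same floor they were 45.2-fold, 35.1-fold and 13.1-fold higher in 4T1 (lower limits 35.8, 27.6 and 9.76). Above 5 CPM, EMT6.5 held 2 of these genes. Cldn4 was at 164 CPM in 4T1 and 52.7 CPM in EMT6.5 (ratio 3.11, 2.75 to 3.53), and Dsp was at 74.3 CPM in 4T1 and 208 CPM in EMT6.5 (ratio 0.358, 0.316 to 0.404). The other junction genes did not share one direction. Of 11 other tight junction genes at the 5 CPM mean, 4 were at least 2-fold higher in 4T1 and 1 lower. Of 9 adherens junction genes none was at least 2-fold higher in 4T1 and 5 were lower (median log2 ratio -1.2). Of 6 desmosome and plakin genes 2 were higher in 4T1 and 1 lower. Other epithelial surface genes at that mean numbered 9, with 6 at least 2-fold higher in 4T1 and none lower (median log2 ratio 3.7). Of 5 keratins at the 5 CPM mean, 1 was at least 2-fold higher in 4T1 and 1 lower. Krt19 was at 35.3 CPM in 4T1 and 2.61 CPM in EMT6.5, Krt8 at 63.7 CPM in 4T1 and 163 CPM in EMT6.5, and the sum of 6 keratins at 904 CPM in 4T1 and 835 CPM in EMT6.5. The sum of 8 fibroblast markers was 12.5 CPM in 4T1 and 3050 CPM in EMT6.5, where Col1a1 and Col1a2 made up most of it. Of 6 epithelial transcription and splicing factors at the 5 CPM mean, 4 were at least 2-fold higher in 4T1 and 1 lower. Grhl2 was at 24.9 CPM in 4T1 and 0 in EMT6.5 and Esrp2 at 17.4 CPM in 4T1 and 0 in EMT6.5, but Elf3 was at 16.5 CPM in 4T1 and 33.6 CPM in EMT6.5. Of 7 repressors, 1 was higher in 4T1 and 2 lower. Zeb1 was at 0.232 CPM in 4T1 and 41.3 CPM in EMT6.5 and Snai2 at 1.63 CPM in 4T1 and 37.8 CPM in EMT6.5, whereas Foxc2 was at 23.0 CPM in 4T1 and 0 in EMT6.5. Twist1 was at 25.1 CPM in 4T1 and 24.6 CPM in EMT6.5, and Zeb2 at 63.4 CPM in 4T1 and 40.3 CPM in EMT6.5. The regulators in this paragraph were named after their values were seen.

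**Figure D4:**
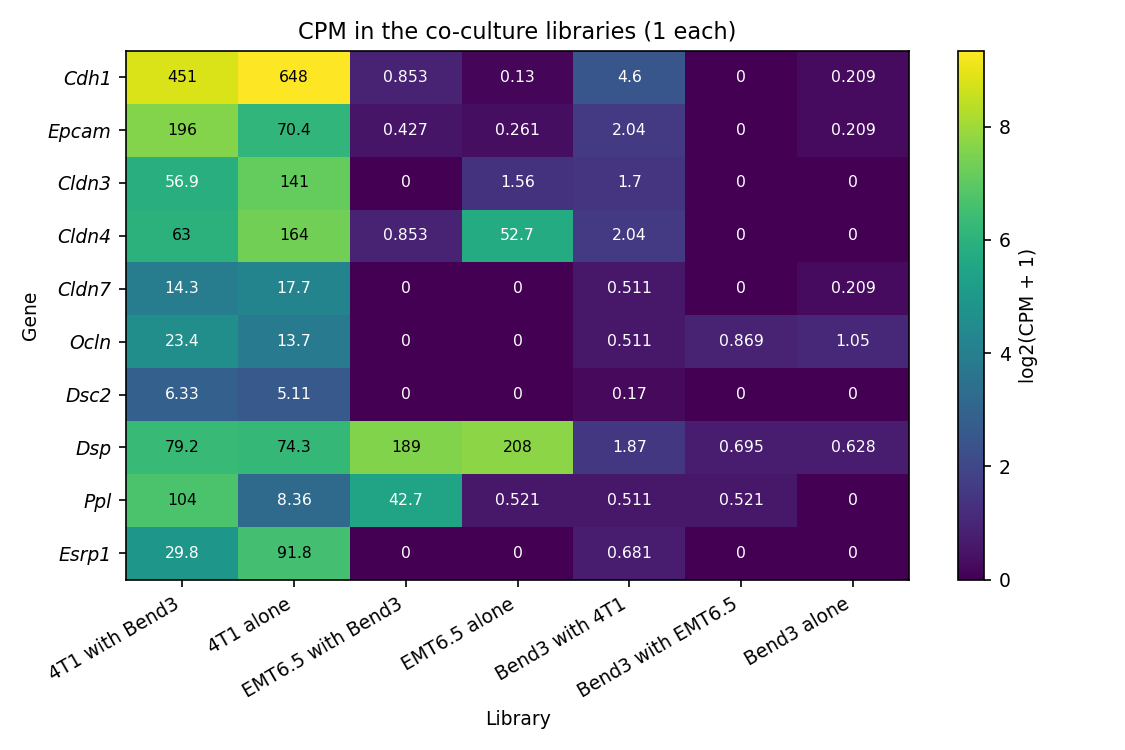
Colour gives log2(CPM + 1) of each gene in each of the 7 co-culture libraries, with the CPM printed in the cell. The 4T1 libraries hold all 10 genes above 5 CPM, the EMT6.5 libraries hold Dsp, with Ppl in EMT6.5 with Bend3 and Cldn4 in EMT6.5 alone, and the Bend3 libraries hold none above 5 CPM.

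In 4T1 sorted after culture with Bend3, 2 of the 10 genes were at least 2-fold higher than in 4T1 alone and 3 at least 2-fold lower, beside 13.0% higher and 12.7% lower of 10212 genes. The largest difference was in Ppl, at 104 CPM in 4T1 with Bend3, from 445 counts, and 8.36 CPM in 4T1 alone, from 36 counts (ratio 12.5, 8.87 to 18.0). Bend3 alone had 0 Ppl counts and Bend3 sorted from the same co-culture had 0.511 CPM, so the partner cells held less of it than the sorted 4T1 cells. Epcam was at 196 CPM in 4T1 with Bend3 and 70.4 CPM in 4T1 alone (ratio 2.78, 2.43 to 3.18). Both lie well outside the counting error of these libraries. In the 4T1 libraries of the knockdown, a separate experiment, Ppl was at 55.0 to 67.1 CPM and Epcam at 240 to 364 CPM. Every one of those libraries was above 4T1 alone for both genes. The part of the single library of 4T1 alone in these 2 ratios was not tested. The 3 lower genes were the splicing factor and a pair of claudins. Esrp1 was at 29.8 CPM in 4T1 with Bend3 and 91.8 CPM in 4T1 alone (ratio 0.324, 0.263 to 0.397). Cldn4 was at 63.0 CPM in 4T1 with Bend3 and 164 CPM in 4T1 alone (0.384, 0.333 to 0.443), and Cldn3 at 56.9 CPM in 4T1 with Bend3 and 141 CPM in 4T1 alone (0.405, 0.348 to 0.471). The adhesion molecule and occludin moved less. Cdh1 was at 451 CPM in 4T1 with Bend3 and 648 CPM in 4T1 alone (0.697, 0.657 to 0.739), short of 2-fold. Ocln was at 23.4 CPM in 4T1 with Bend3 and 13.7 CPM in 4T1 alone (1.71, 1.23 to 2.40). The intervals of Cldn7 (0.809, 0.568 to 1.15), Dsc2 (1.24, 0.679 to 2.28) and Dsp (1.07, 0.911 to 1.25) held 1, so no difference was detectable at this depth.

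Of 10 other tight junction genes at the 5 CPM mean, 5 were at least 2-fold lower and none higher, and of 7 desmosome and plakin genes 2 were higher and 2 lower. Adherens junction genes (9) and other epithelial surface genes (9) each had 2 higher and 1 lower. Epithelial transcription and splicing factors (7) had none higher and 2 lower. Repressors (5) had 2 higher and none lower (median log2 ratio 0.99). Genes spliced by ESRP proteins (9) had 1 higher and 1 lower. Endothelial markers moved with the co-culture: their sum was 410 CPM in 4T1 with Bend3 and 142 CPM in 4T1 alone. Flt1, already present in 4T1 alone, made up most of both sums, at 283 CPM in 4T1 with Bend3 and 97.8 CPM in 4T1 alone, and Pecam1 was at 30.9 CPM in 4T1 with Bend3 and 8.36 CPM in 4T1 alone. Pecam1 in the sorted 4T1 cells was at 1.03% of its level in the sorted Bend3 cells. The keratin sum was 1320 CPM in 4T1 with Bend3 and 904 CPM in 4T1 alone. The labels mention sorting for co-cultured cells only, so the parts of sorting and of co-culture cannot be told apart.

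**Figure D5:**
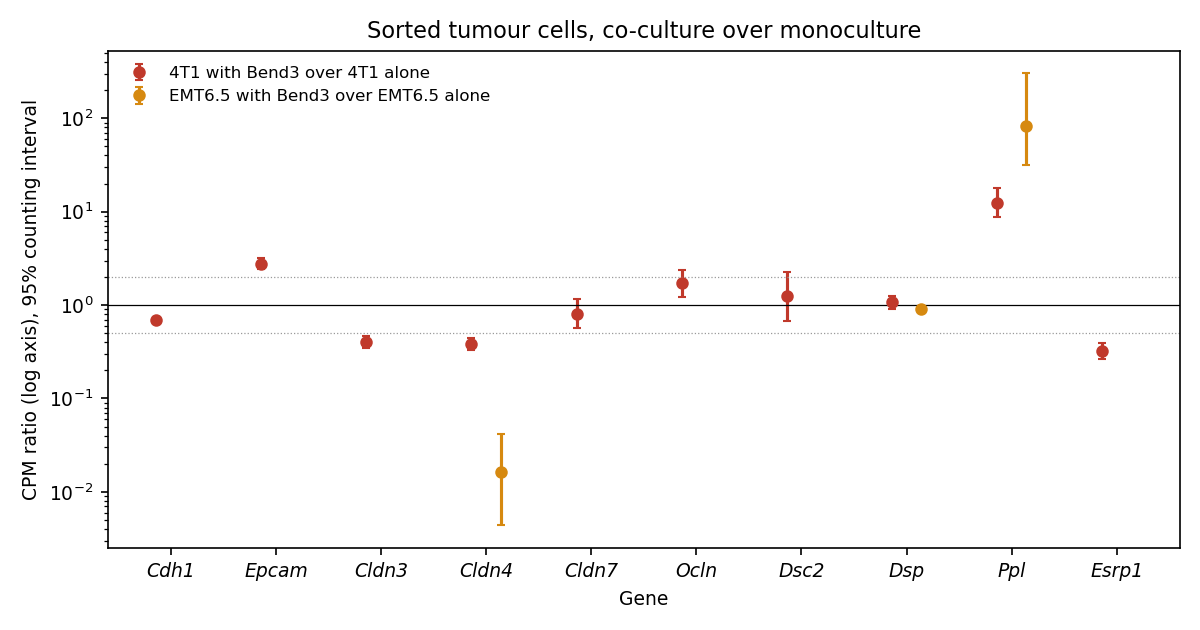
CPM ratio (log axis) of sorted co-cultured tumour cells over the same line alone, with exact 95% counting intervals (1 library a condition), for genes at a mean of at least 5 CPM; dotted lines mark 2-fold. Ppl lies above 2-fold in both lines, at 12.5 in 4T1 and 81.8 in EMT6.5, and Cldn4 below it in both, at 0.384 and 0.0162.

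In EMT6.5, 3 of the 10 genes reached the 5 CPM mean, of which 1 was at least 2-fold higher and 1 lower, beside 5.01% higher and 6.97% lower of 10293 genes. Ppl was again the higher gene, at 42.7 CPM in EMT6.5 with Bend3, from 200 counts, and 0.521 CPM in EMT6.5 alone, from 4 counts (ratio 81.8, 31.5 to 303). Bend3 sorted from that co-culture had 3 Ppl counts, or 1.22% of the level in sorted EMT6.5 cells. Cldn4 was again lower, at 0.853 CPM in EMT6.5 with Bend3, from 4 counts, and 52.7 CPM in EMT6.5 alone, from 404 counts, and so was 61.7-fold lower (23.9 to 228). Cldn3 had 0 counts in EMT6.5 with Bend3 and 12 in EMT6.5 alone. It was 2.44-fold lower by the floor of 3 counts (lower limit of the counting interval 1.7). Dsp was at 189 CPM in EMT6.5 with Bend3 and 208 CPM in EMT6.5 alone (0.910, 0.837 to 0.988). Cldn7, Ocln, Dsc2 and Esrp1 had 0 counts in both EMT6.5 libraries, and Cdh1 and Epcam had 1 to 4 counts. Of 9 other tight junction genes, 4 were at least 2-fold lower and none higher. None of 9 adherens junction genes, 4 desmosome and plakin genes or 8 genes spliced by ESRP proteins differed by at least 2-fold. Epithelial transcription and splicing factors (3) had none higher and 2 lower, and repressors (7) had 1 higher and 2 lower. Other epithelial surface genes (4) had 1 higher and 1 lower. The endothelial marker sum was 130 CPM in EMT6.5 with Bend3 and 137 CPM in EMT6.5 alone, but single markers differed. Pecam1 was at 18.1 CPM in EMT6.5 with Bend3 and 6.52 CPM in EMT6.5 alone, Tie1 at 6.40 CPM in EMT6.5 with Bend3 and 0.782 CPM in EMT6.5 alone, and Erg at 4.05 CPM in EMT6.5 with Bend3 and 0.261 CPM in EMT6.5 alone. Cdh5 and Cldn5 were also higher with Bend3, while Kdr, Esam, Emcn, Flt1 and Tek were lower. Kdr was at 27.9 CPM in EMT6.5 with Bend3 and 35.5 CPM in EMT6.5 alone. Flt1 was at 30.7 CPM in EMT6.5 with Bend3 and 37.3 CPM in EMT6.5 alone. The fibroblast marker sum was 1860 CPM in EMT6.5 with Bend3 and 3050 CPM in EMT6.5 alone, and the keratin sum 646 CPM in EMT6.5 with Bend3 and 835 CPM in EMT6.5 alone. Col1a1 (777 CPM with Bend3, 1410 CPM alone) and Col1a2 (985 CPM with Bend3, 1610 CPM alone) made up most of both fibroblast sums. Pdgfrb (85.8 CPM with Bend3, 24.8 CPM alone) and Pdgfra (13.2 CPM with Bend3, 10.2 CPM alone) went the other way. The part of these markers in the values above was not tested. The 2 tumour lines have separate monocultures, and whether their responses differ was not tested.

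In Bend3 none of the 10 genes reached the 5 CPM mean in either pair; of the genes that did, 2.84% were higher and 1.88% lower with 4T1 and 2.52% higher and 1.69% lower with EMT6.5. Endothelial markers were high in Bend3, with a sum of 9120 CPM with 4T1, 9900 CPM with EMT6.5 and 7400 CPM alone. All 10 markers were above 1 CPM there, as they were in the sorted 4T1 and EMT6.5 libraries, whose sums were 410 and 130 CPM. Cdh1 had 27 counts (4.60 CPM) in Bend3 with 4T1 and 1 count (0.209 CPM) in Bend3 alone (ratio 22.0, 3.62 to 900), and no counts in Bend3 with EMT6.5. Epcam had 12 counts in Bend3 with 4T1 and 1 in Bend3 alone (9.77, 1.44 to 417), and Dsp 11 counts in Bend3 with 4T1 and 3 in Bend3 alone (2.98, 0.788 to 16.7). Cldn4 and Cldn3 had 12 and 10 counts in Bend3 with 4T1 and 0 in Bend3 alone. They were 3.26-fold and 2.71-fold higher by the floor of 3 counts (lower limits of the counting intervals 2.26 and 1.82). Only Ocln was lower with 4T1, at 3 counts in Bend3 with 4T1 and 5 in Bend3 alone (0.488, 0.0758 to 2.51). It had 5 counts in Bend3 with EMT6.5. Over 9 of the 10 genes, Ocln among them, the level in Bend3 with 4T1 was 0.490% to 3.57% of that in the 4T1 cells of the same co-culture, with counting intervals from 0.101% to 10.9%. The keratins Krt8 and Krt18 were at 3.21% and 1.75% on the same scale, and the keratin sum was 38.1 CPM in Bend3 with 4T1, 7.30 CPM in Bend3 with EMT6.5 and 1.26 CPM in Bend3 alone. Whether these counts came from Bend3 cells or from 4T1 cells carried through the sort was not tested. Both Bend3 pairs share the 1 library of Bend3 alone.

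By likeness, the genes whose log2(CPM + 1) followed the mean of the 10 genes most closely over the 7 co-culture libraries were Hnrnph3 (Pearson r 0.996), Msantd2 (0.994), Ptprf (0.993), Dtl (0.991) and Zfp445 (0.990), out of 10740 genes ranked. Of these, Ptprf, a receptor tyrosine phosphatase, had a range like that of the junction genes, at 172 CPM in 4T1 with Bend3, 183 CPM in 4T1 alone, 2.13 CPM in EMT6.5 with Bend3, 6.26 CPM in EMT6.5 alone and at most 1.70 CPM in Bend3. Hnrnph3 ranged only between 74.7 and 119 CPM. The 7 points are 2 tumour lines and 1 endothelial line, share cell lines, and describe these libraries only.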

How the data were processed

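Per the labels' protocols, TRIzol-extracted RNA was made into stranded mRNA libraries and sequenced from one end on an Illumina instrument. What the authors deposited are raw counts per gene. Trim Galore 0.5.0 and, for mouse, the build GRCm38 are named in the submitters' processing notes, as are HISAT2 2.1.0 and HTSeq. The human build, the annotation and the strand setting are not given in the sources used here. Without molecular identifiers, intervals and floors reflect counting error alone. Of the knockdown table, 10 library columns matched no label and were not used. The human table names its controls SCR, read as the control label. Entries that name no gene were left out; in co-culture, entries not aligned uniquely were 48.2% to 55.3% of all entries, against 3.54% to 3.70% in MDA-MB-231.

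Each replicated experiment was fitted alone with edgeR 4.0.16 in R 4.3.3 (TMM, default filter on low counts, quasi-likelihood test, Benjamini-Hochberg adjustment over all genes tested), without a replicate block. Standard errors were derived from the F statistic. Alternatives were DESeq2 1.42.0, library totals, no filter, a replicate block, lane, and leaving out each library. Scripts were tested on simulated data. Co-culture ratios are ratios of CPM at a mean of at least 5 CPM, with 95% exact binomial intervals. A count of 0 was set to a floor of 3 counts per library. Folds from this floor leave out counting error in the other library, which the 95% lower limits beside them include. Exon lengths and positions came from GENCODE M21, which held 95.7% of knockdown symbols, and chromosome medians leave out the gene itself. Promoter windows came from RefSeq (GRCm38.p6).

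The genes, 7 pathway lists and 4 marker lists were chosen with earlier results of these data known. Named were all 10 genes, the PHGDH target, the 3 called genes per list with the largest absolute log2 fold change that averaged 1 CPM or more and whose groups did not overlap, and the 5 genes most like the mean of the 10 in co-culture; others are marked where named. A gene that this rule selects in the knockdown is not reported here.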

Additional observations from a re-analysis of the deposited data

How the results depend on the processing

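Of the 10 genes in the knockdown, 9 were called as reported, 8 with DESeq2, 9 with library totals or no filter, 8 to 9 without 1 library and 7 with lane as a covariate or with lane 6 alone. Calls were lost for Ocln and Ppl only, with the values given above. Over all genes tested, 6905 of 11568 were called as reported, 5631 of 16730 with DESeq2 and 7050 of 11568 with library totals. With no filter 7101 of 16732 were called, and 6321 to 6617 without 1 library. With lane as a covariate 5799 of 11568 were called, and with lane 6 alone 5938 of 11943. Dsp, which was not called, turned sign with library totals (log2 fold change -0.021, adjusted p = 0.519 by edgeR). In MDA-MB-231, 7 were called as reported and 6 to 7 without 1 library. With DESeq2, library totals or no filter 6 were called, the lost call being OCLN each time. Over all genes tested there, 7864 of 17663 were called as reported and 6597 to 8108 without 1 library. With DESeq2 6708 of 31963 were called, with library totals 7953 of 17663 and with no filter 8006 of 31963. The replicate numbers did not pair the libraries (correlations of deviations from the group means between same-numbered libraries of -0.06 to 0.04). A fit with the replicate block called 9 of the 10 genes in the knockdown and 6 in MDA-MB-231, and 6585 and 7761 genes in all, against 6905 and 7864 without the block. In co-culture, TMM sizes, a 1.5-fold threshold and a minimum of 1 CPM changed no count by more than 1.5 times, except in Bend3 with 4T1, where a mean of at least 1 CPM gave 4 higher genes in place of 0. Depth limited the low values most: CDH1 and ESRP1 in MDA-MB-231, and all 10 genes in Bend3, rest on few counts. A library per condition in co-culture leaves no replicate check.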
